A study of Mus musculus with 14 samples.

Results

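Transcripts of 8 enzymes and subunits that write, maintain or remove DNA methylation or that make up Polycomb repressive complex 2 (PRC2) were examined in mouse regulatory T cells (Tregs): Dnmt1, Uhrf1, Dnmt3a, Tet2, Tet3, Ezh2, Eed and Suz12. They were taken by gene symbol, and all 8 were present among the 14449 genes measured. All 8 also passed the filter on low values, as did 12329 genes in all. The cells were CD4+Foxp3eGFP+, meaning helper-lineage T cells that carry a green fluorescent reporter of Foxp3. Lymph nodes of the BALB/c strain at postnatal day 35 were the source, with 50000 sorted cells per library. Il1rn-/- mice gave 7 libraries and wild-type mice gave 7. Il1rn encodes the secreted antagonist of the IL-1 receptor, and the series concerns Tregs of IL-1-driven arthritis. The sample titles divide the libraries into set a (3 Il1rn-/-, 3 wild type) and set b (4 Il1rn-/-, 4 wild type) without explaining the letters. Il1rn had 0 rows in the table, so the genotype labels could not be checked on the targeted gene. The labels do not say that each library came from a separate animal, so p-values measure the spread between libraries, which may be technical.

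DNA methylation at CpG sites is copied to the new strand at each cell division by Dnmt1, which Uhrf1 brings to hemimethylated sites. Dnmt3a adds methyl groups to unmethylated sites, and Tet enzymes oxidise them as the first step of their removal. PRC2 places the repressive H3K27me3 mark through its catalytic subunit Ezh2, with Eed and Suz12 as required partners. In Tregs, a CpG-rich intronic enhancer of Foxp3 is free of methylation, which keeps Foxp3 expressed through divisions. Tet2 and Tet3 are known to take part in that demethylation, and Ezh2 in the repressed programme of activated Tregs. RNA levels were measured here, not methylation or H3K27me3.

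The libraries held 952021 to 3756559 reads in the genes of the table. They fell into a deep group of 8 (5 Il1rn-/-, 3 wild type) and a shallow group of 6 (2 Il1rn-/-, 4 wild type) by their correlations across genes. Rn45s, the ribosomal RNA precursor, took 20.3% to 40% of reads in the deep group and 59.6% to 65.8% in the shallow group. All of set a was deep, and in set b the deep libraries were Il1rn-/- 3-b and 4-b only. Among deep libraries, Il1rn-/- 3-b and 4-b and wild type 1-a and 2-a held Y-linked transcripts, at 20 reads or more. Such libraries were thus wild type alone in set a and Il1rn-/- alone in set b. Genotype and library group therefore cannot be fully told apart in set b, nor genotype and Y-linked expression in either set. The T cell and Treg markers Cd3e, Cd4 and Foxp3 had at least 586, 306 and 315 reads in each library, as the sort label implies. Markers of other cells were present at low levels, and not all were at 0. Pax5 (B cells) reached 4 reads and was at 0 in 7 libraries, Cd14 (monocytes) reached 7 and was at 0 in 10, and Klrb1c (NK cells) reached 3 and was at 0 in 10. In every library, by contrast, Ctss and Lyz2 (myeloid cells) had at least 148 and 3 reads, Cd79a, Cd79b and Cd22 (B cells) at least 7, 4 and 1, and Nkg7 and Cd8a (NK and CD8 T cells) at least 13 and 11. Between genotypes 0 genes of the T cell, B cell, plasma cell, monocyte, dendritic cell and CD8 T or NK cell lists passed. Between sets, where 19.5% of all genes passed and the median of all genes was -0.11 (set b minus set a), 4 of 9 T cell and Treg markers rose and 1 fell, 3 of 8 B cell markers fell (median -1.31) and 1 of 5 CD8 T or NK markers rose. There 0 of 5 plasma cell, 0 of 6 monocyte and 0 of 3 dendritic cell markers passed. Summed, the monocyte markers reached 168 to 453 CPM in Il1rn-/- libraries and 140 to 260 in wild-type libraries, the plasma cell markers 95.9 to 259 in Il1rn-/- and 135 to 258 in wild type, and the B cell markers 20.2 to 69.6 in Il1rn-/- and 27.9 to 73.1 in wild type. The CD8 T and NK cell markers summed to 50.9 to 77.4 CPM in Il1rn-/- and 43 to 95.7 in wild type, and the dendritic cell markers to 5.89 to 22.1 in Il1rn-/- and 5.1 to 17.6 in wild type. The plasma cell sum rested mostly on Xbp1, Irf4 and Prdm1, with up to 456, 341 and 215 reads, whereas Jchain, Mzb1 and Sdc1 reached 27, 15 and 9. The monocyte sum rested mostly on Ctss, with up to 1395 reads, whereas Lyz2, Cd68 and Cd14 reached 81, 10 and 7. These 2 sums therefore do not measure how many such cells were present. The part of these cells in the results was not tested. Expression is given as log2 CPM, the base 2 logarithm of the deposited CPM, which is reads scaled by a factor for each library. That factor did not follow total reads alone. It was 0.176 CPM per read in wild type 3-a, with 3522049 reads, and 0.674 in wild type 1-b, with 2151760 reads. Rn45s stood at 945501 CPM in wild type 1-b, where it took 65.2% of reads. A deposited CPM is therefore not a plain share of reads. CPM over reads outside Rn45s, the alternative used below, is scaled by those reads alone.

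None of the 8 transcripts differed between Il1rn-/- and wild-type Tregs beyond the spread of the libraries. With limma and Benjamini-Hochberg adjustment over all 12329 genes, 0 of the 8 passed an adjusted p of 0.05 over all libraries, and 0% of all genes did. At an unadjusted p under 0.05 stood 679 genes, or 5.51%, and none of the 8. A second tool, limma voom on recovered reads, also called 0 genes. The largest differences among the 8 were those of Tet2, 0.35 on the log2 scale (95% interval -0.13 to 0.83), and Uhrf1, -0.31 (-0.75 to 0.13). No transcript of the 8 had every Il1rn-/- library above or below every wild-type library, in set a (7.97% of all genes did), in set b (4.28%) or over all libraries (0.0324%). Foxp3 itself differed by 0.03 (-0.31 to 0.37).

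**Figure D1:**
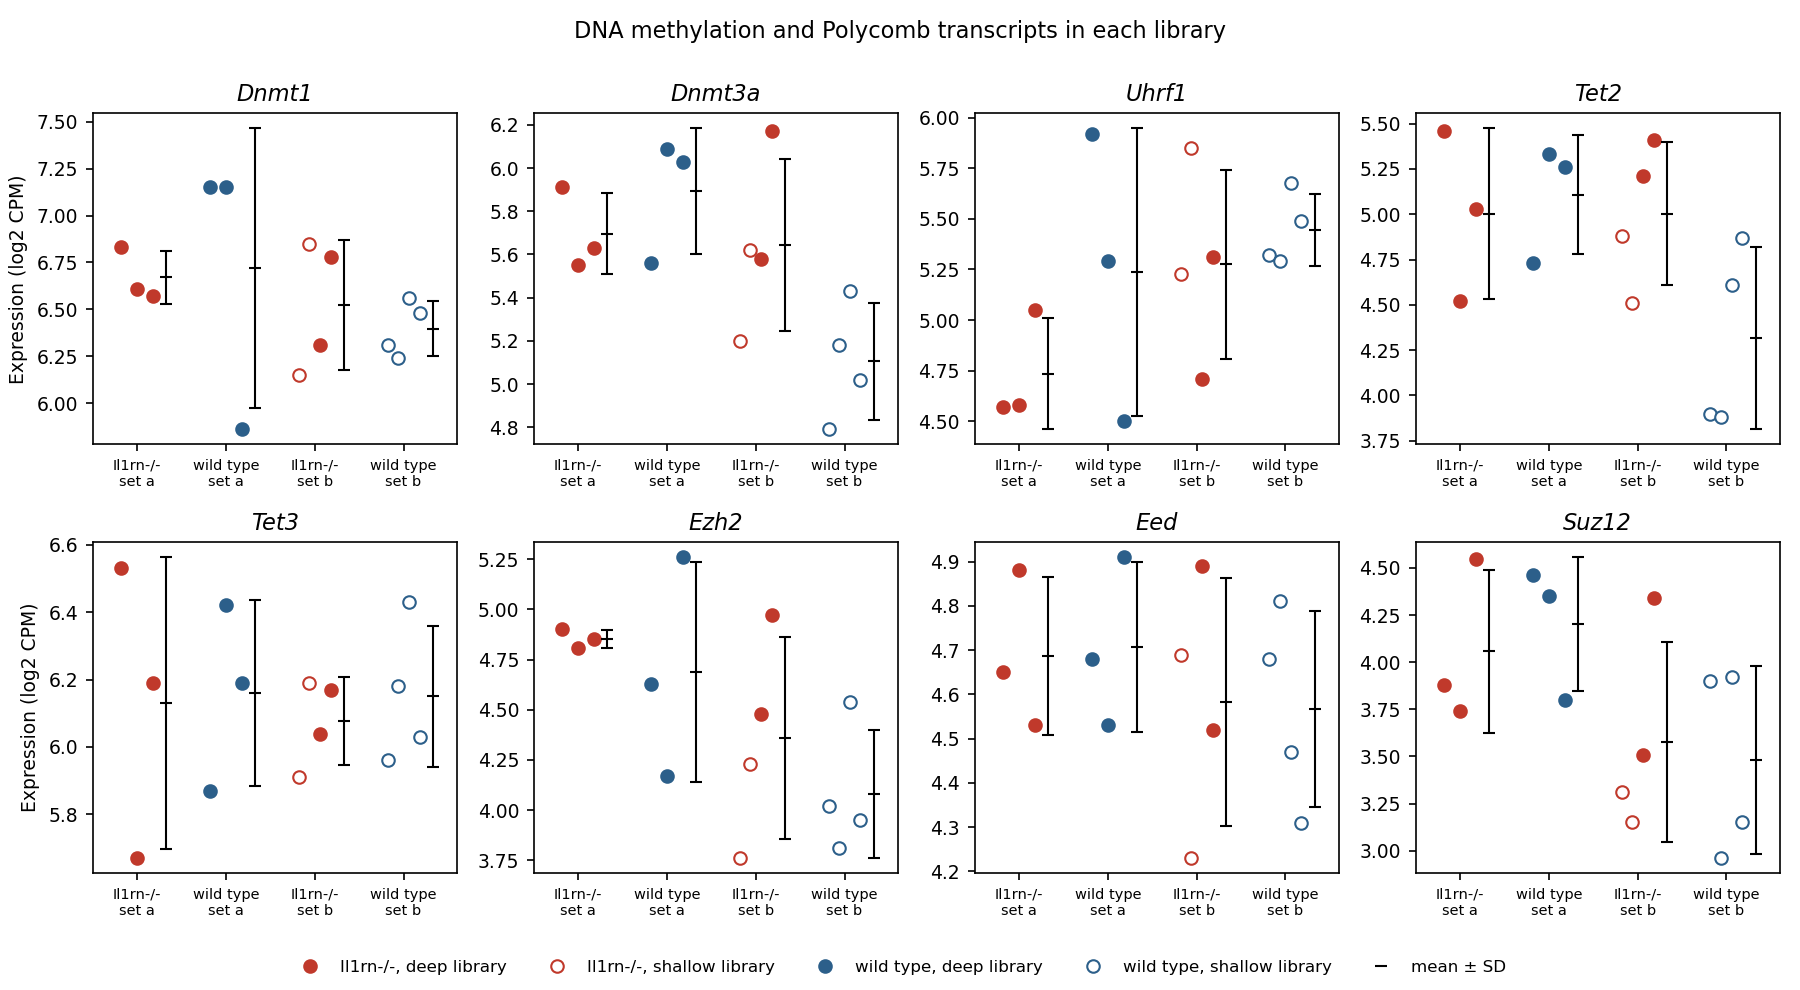
Expression of the 8 transcripts in each library, in log2 CPM, by genotype and set, with the mean and SD beside each group. Filled points are deep libraries and open points shallow ones, and the Il1rn-/- and wild-type points of each set overlap for every transcript.

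**Figure D2:**
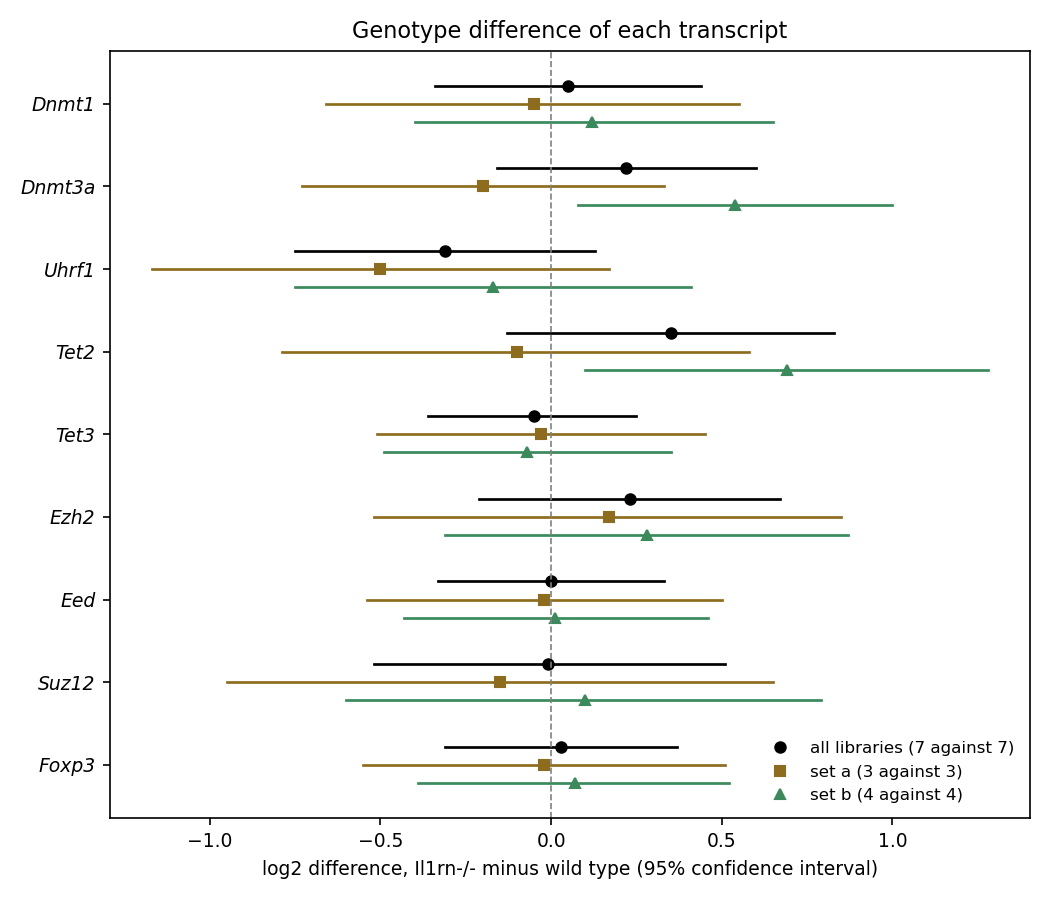
Difference between Il1rn-/- and wild type in log2 units (x axis) for each transcript and Foxp3, with 95% intervals from limma, over all libraries, in set a and in set b. The intervals cross 0 except those of Dnmt3a (0.08 to 1.00) and Tet2 (0.10 to 1.28) in set b, which did not pass adjustment over all genes.

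Dnmt1, the maintenance methyltransferase, was the most abundant of the 8 per length of exon. Its level was 6.83, 6.61 and 6.57 log2 CPM in Il1rn-/- 1-a to 3-a and 7.15, 7.15 and 5.86 in wild type 1-a to 3-a. In set b it was 6.15, 6.85, 6.31 and 6.78 in Il1rn-/- 1-b to 4-b and 6.31, 6.24, 6.56 and 6.48 in wild type 1-b to 4-b. Wild type 3-a was the lowest of all 14 libraries in these values. With CPM over reads outside Rn45s the lowest was Il1rn-/- 3-b, at 6.78, against 6.88 in wild type 3-a. In the log2 CPM values above, the genotypes overlapped in both sets. The genotype difference was 0.05 ± 0.19 (SE, 7 libraries each; limma adjusted p = 0.963), so a fold below 0.789 or above 1.36 lay outside its 95% interval.

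Uhrf1, the partner of Dnmt1 that reads hemimethylated CpG sites, was at 4.57, 4.58 and 5.05 log2 CPM in Il1rn-/- 1-a to 3-a and at 5.92, 5.29 and 4.50 in wild type 1-a to 3-a. In set b the values were 5.23, 5.85, 4.71 and 5.31 in Il1rn-/- 1-b to 4-b and 5.32, 5.29, 5.68 and 5.49 in wild type 1-b to 4-b. The Il1rn-/- mean was lower in both sets with overlap in each: wild type 3-a lay below every Il1rn-/- library of set a, and Il1rn-/- 2-b above every wild-type library of set b. The difference over all libraries was -0.31 ± 0.21 (SE; limma adjusted p = 0.797), it was -0.50 in set a and -0.17 in set b. The size rested on single libraries and terms: the set a value was -0.16 without wild type 1-a and -0.87 without wild type 3-a, and the value over all libraries was -0.17 without wild type 1-a, -0.19 with the library group in place of the letter and -0.09 when Y-linked expression was also in the model. Among the deep libraries alone it was -0.39, and among the shallow ones 0.09. Of the 32-base words in Uhrf1 transcripts, 23.7% also occur in other genes, most of them in Gm5648, so its reads may be shared.

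Dnmt3a, the de novo methyltransferase, was at 5.91, 5.55 and 5.63 log2 CPM in Il1rn-/- 1-a to 3-a and at 5.56, 6.09 and 6.03 in wild type 1-a to 3-a. In set b it was at 5.20, 5.62, 5.58 and 6.17 in Il1rn-/- 1-b to 4-b and at 4.79, 5.18, 5.43 and 5.02 in wild type 1-b to 4-b. In set b 3 of the 4 Il1rn-/- libraries lay above all 4 wild-type libraries, whereas in set a 2 of 3 wild-type libraries lay above all Il1rn-/- ones. The set b difference was 0.54 ± 0.22 (SE, 4 libraries each; limma unadjusted p = 0.0245, adjusted p = 0.277).

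Tet2, a methylcytosine oxidase, showed a like set b difference of 0.69 ± 0.28 (SE, 4 libraries each; limma unadjusted p = 0.0249, adjusted p = 0.278). Its level was 4.88, 4.51, 5.21 and 5.41 log2 CPM in Il1rn-/- 1-b to 4-b and 3.90, 3.88, 4.61 and 4.87 in wild type 1-b to 4-b. In set a it was 5.46, 4.52 and 5.03 in Il1rn-/- 1-a to 3-a and 4.73, 5.33 and 5.26 in wild type 1-a to 3-a. The highest set b values were thus in the deep Il1rn-/- 3-b and 4-b libraries, and the lowest in wild type 1-b and 2-b, where Tet2 rested on 22 and 21 reads.

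In set b 2 of the 8 transcripts, Dnmt3a and Tet2, had an unadjusted p under 0.05, beside 15.0% of all genes, and 0 of 8 passed adjustment, beside 0% of all genes. Deep minus shallow libraries, with genotype in the model and no test, gave 0.59 for Dnmt3a and 0.62 for Tet2. With the library group in place of the letter, the genotype difference over all libraries was 0.05 for Dnmt3a and 0.17 for Tet2. Among the shallow libraries alone, 2 Il1rn-/- against 4 wild type, it was 0.31 ± 0.22 for Dnmt3a (SE; limma adjusted p = 0.961) and 0.38 ± 0.35 for Tet2 (SE; limma adjusted p = 0.961). Among the deep libraries alone, 5 Il1rn-/- against 3 wild type, it was -0.13 ± 0.19 for Dnmt3a and 0.02 ± 0.25 for Tet2 (SE; limma adjusted p = 1 for both). Without Il1rn-/- 4-b, the set b difference of Dnmt3a was 0.36. The set b difference exceeded that of set a by 0.74 for Dnmt3a (limma unadjusted p = 0.0411, adjusted p = 0.623) and by 0.79 for Tet2 (limma adjusted p = 0.662). This was the test of whether the genotype difference varied between sets: 1 of the 8, Dnmt3a, had an unadjusted p under 0.05, beside 7.85% of all genes, and 0 of 8 passed adjustment, beside 0% of all genes. In set a 0 of 8 passed, beside 0% of all genes, and none had an unadjusted p under 0.05, beside 1.97% of all genes.

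Tet3, the second Tet enzyme with a known part in Tregs, was at 6.53, 5.67 and 6.19 log2 CPM in Il1rn-/- 1-a to 3-a and at 5.87, 6.42 and 6.19 in wild type 1-a to 3-a. The set b values were 5.91, 6.19, 6.04 and 6.17 in Il1rn-/- 1-b to 4-b and 5.96, 6.18, 6.43 and 6.03 in wild type 1-b to 4-b. The extremes of all 14 libraries, 6.53 and 5.67, were both Il1rn-/- libraries of set a. The genotype difference was -0.05 ± 0.15 (SE; limma adjusted p = 0.949), the smallest standard error of the 8. Deep minus shallow libraries gave 0.04 for Tet3, beside 0.62 for Tet2.

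Ezh2, the catalytic subunit of PRC2, was at 4.90, 4.81 and 4.85 log2 CPM in Il1rn-/- 1-a to 3-a and at 4.63, 4.17 and 5.26 in wild type 1-a to 3-a. In set b it was at 3.76, 4.23, 4.48 and 4.97 in Il1rn-/- 1-b to 4-b and at 4.02, 3.81, 4.54 and 3.95 in wild type 1-b to 4-b. The set a Il1rn-/- libraries were close together, and the wild-type ones lay on both sides of them. The genotype difference was 0.23 ± 0.21 (SE; limma adjusted p = 0.841) over all libraries and 0.03 with the library group in place of the letter.

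Suz12, the subunit that holds PRC2 together, was at 3.88, 3.74 and 4.55 log2 CPM in Il1rn-/- 1-a to 3-a and at 4.46, 4.35 and 3.80 in wild type 1-a to 3-a. Set b gave 3.31, 3.15, 3.51 and 4.34 in Il1rn-/- 1-b to 4-b and 3.90, 2.96, 3.92 and 3.15 in wild type 1-b to 4-b. Its lowest count, 11 reads in wild type 2-b, was the lowest of any of the 8 transcripts in any library. The genotype difference was -0.01 ± 0.25 (SE; limma adjusted p = 0.997) over all libraries, the widest interval of the 8 (-0.52 to 0.51), and -0.22 with the library group in place of the letter.

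Eed, the subunit that binds H3K27me3, had the smallest genotype difference of the 8. It was at 4.65, 4.88 and 4.53 log2 CPM in Il1rn-/- 1-a to 3-a and at 4.68, 4.53 and 4.91 in wild type 1-a to 3-a. Its set b values were 4.69, 4.23, 4.89 and 4.52 in Il1rn-/- 1-b to 4-b and 4.68, 4.81, 4.47 and 4.31 in wild type 1-b to 4-b. The groups covered nearly the same range, with a difference of 0.00 ± 0.16 (SE; limma adjusted p = 1) and a 95% interval for the fold of 0.797 to 1.26.

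Compared per kilobase of exon, Dnmt1 stood highest at 13.2 ± 2.31 CPM per kb in Il1rn-/- and 13.2 ± 4.43 in wild type (SD, n = 7 each). Uhrf1 followed at 8.09 ± 2.82 CPM per kb in Il1rn-/- and 9.95 ± 2.77 in wild type, then Eed at 6.51 ± 1.01 in Il1rn-/- and 6.49 ± 0.909 in wild type. Tet3 had 4.16 ± 0.776 CPM per kb in Il1rn-/- and 4.30 ± 0.648 in wild type, and Ezh2 had 3.68 ± 0.996 in Il1rn-/- and 3.20 ± 1.26 in wild type. Dnmt3a had 3.11 ± 0.676 CPM per kb in Il1rn-/- and 2.75 ± 0.948 in wild type, Suz12 had 2.93 ± 1.09 in Il1rn-/- and 2.96 ± 1.07 in wild type, and Tet2 was lowest with 1.96 ± 0.512 in Il1rn-/- and 1.59 ± 0.597 in wild type. Neighbours in this order overlapped in both genotypes, except Eed and Tet3 in wild type, where the lowest Eed value was 5.16 and the highest Tet3 value 5.15. Within PRC2, Eed was thus above Ezh2 and Suz12 per length, and among the Tet enzymes Tet3 was above Tet2. Exon lengths are unions over GENCODE vM21 transcripts, which need not match the isoforms these cells use.

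Between set b and set a 2408 genes passed, against 0 between genotypes. Ezh2 was at -0.55 ± 0.21 (set b minus set a; SE; limma adjusted p = 0.0736), Suz12 at -0.60 ± 0.25 (adjusted p = 0.0945) and Dnmt3a at -0.42 ± 0.18 (adjusted p = 0.114). So 0 of the 8 passed adjustment, beside 19.5% of all genes, and these 3 of 8 had an unadjusted p under 0.05, beside 34.2% of all genes. Without Il1rn-/- 4-b, all 3 passed, Ezh2 at -0.65 (limma adjusted p = 0.0231), Dnmt3a at -0.53 (adjusted p = 0.0236) and Suz12 at -0.73 (adjusted p = 0.0274). In that run more genes in all passed than over all libraries or without any other single library, so these calls are not particular to the 8. With all libraries, Tet2 was at -0.39, Dnmt1 at -0.23, Eed at -0.12 and Tet3 at -0.03, and Uhrf1 alone was positive at 0.38. None of these had an unadjusted p under 0.05. Between library groups the order was alike: deep libraries exceeded shallow ones by 0.75 for Suz12, 0.70 for Ezh2 and 0.23 for Dnmt1, whereas Uhrf1 was at -0.43 (values given with no test). With the library group added to the model, the set differences were 0.06 for Dnmt3a, -0.07 for Ezh2 and -0.11 for Suz12. The median over all genes tested was -0.11 for set b minus set a.

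Within the deep libraries, Dnmt1 had the closest relation to Foxp3 of the 8 transcripts. Over the 8 deep libraries, Pearson's r between their log2 CPM values was 0.97 (exact two-sided permutation p = 9.92e-05) and Spearman's rho was 0.95 (exact p = 0.00114). Adjusted over all 12328 genes correlated with Foxp3 in the same libraries, p was 0.0966 for r and 0.227 for rho, so the relation did not pass at 0.05. In this comparison 0 of the 8 transcripts and 0% of all genes passed, and 2 of the 8, Dnmt1 and Uhrf1, had an unadjusted p under 0.05, beside 11.4% of all genes. Dnmt1 ranked 11 of 12328 genes by its r. With CPM taken over reads outside Rn45s, r was again 0.97 and passed (exact permutation, adjusted p = 0.034), together with 12 other genes, while rho did not (adjusted p = 0.0556). On that scale 15.9% of all genes had an unadjusted p under 0.05. With libraries centred on their median r was 0.96 and did not pass (exact permutation, adjusted p = 0.153).

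The pairs of values behind this were 8.78 (Foxp3) and 6.83 (Dnmt1) log2 CPM in Il1rn-/- 1-a, 8.75 and 6.61 in 2-a, 8.54 and 6.57 in 3-a, 8.44 and 6.31 in 3-b, and 8.84 and 6.78 in 4-b. Among wild-type libraries they were 9.06 and 7.15 in 1-a, 8.90 and 7.15 in 2-a, and 8.16 and 5.86 in 3-a. On this deposited scale the wild-type libraries held both ends and the Il1rn-/- ones lay between. With CPM over reads outside Rn45s, the lowest deep library was Il1rn-/- 3-b, at 8.91 (Foxp3) and 6.78 (Dnmt1). Wild type 3-a was there at 9.18 and 6.88. On the deposited scale r was 0.88 without the 2 libraries farthest from the median Foxp3, and leaving out each library in turn gave 0.93 to 0.98. Over the 6 shallow libraries r was 0.69 (exact p = 0.121; adjusted p = 1) and rho was 0.83 (exact p = 0.0583; adjusted p = 1). Without the 2 farthest, which leaves few libraries, r was 0.93, but 0.46 with CPM over reads outside Rn45s. In the shallow libraries 0 of the 8 passed, beside 0% of all genes, and none had an unadjusted p under 0.05 by r, beside 4.17%. By rho the highest there was Ezh2, at 0.89 (exact p = 0.0333; adjusted p = 1). Its r without the 2 farthest libraries was 0.39, but 0.83 with CPM over reads outside Rn45s. In bulk RNA, fewer cells of a type and less RNA per cell cannot be told apart.

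Other measures moved in the same libraries. The mean of 23 DNA replication and cell cycle genes was highest in wild type 1-a, at 5.96 log2 CPM, and lowest among deep libraries in wild type 3-a, at 4.77. Wild type 3-a also had the most reads outside Rn45s (2805693) and the smallest Rn45s share (20.3%). The mean of the plasma cell markers was 4.15 log2 CPM in wild type 1-a, 3.22 in 2-a and 1.36 in 3-a. That of the B cell markers was 2.35, 2.18 and 1.08 in the same libraries. In the deep Il1rn-/- libraries 1-a, 2-a, 3-a, 3-b and 4-b the plasma cell mean was 1.21, 2.84, 2.02, 1.16 and 1.92. The B cell mean there was 1.59, 1.72, 2.10, 1.37 and 0.15. Among these Il1rn-/- libraries neither mean followed the order of Foxp3, which was highest in 4-b. The part of these measures in the Foxp3 and Dnmt1 relation was not tested. Foxp3 shares 853 exon bases with the lncRNA Flicr on the same strand. On the opposite strand it shares 590 with Ccdc22, 373 with Gm36995 and 266 with Ppp1r3f. Of the 32-base words in Foxp3 transcripts, 26.2% also occur in other genes, most of them in Flicr. Reads of these genes may have been counted with Foxp3, and the strand setting was not given.

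Next by r in the deep libraries was Uhrf1, at 0.71 (exact permutation p = 0.043; adjusted p = 0.424), 0.65 without the 2 farthest libraries and 0.67 over the shallow libraries (exact p = 0.146; adjusted p = 1). The others ranged in the deep group between -0.56 (Eed) and 0.53 (Suz12). Without the 2 farthest libraries these were 0.09 for Eed and 0.10 for Suz12, and -0.40 and 0.24 with libraries centred on their median. Leaving out each library in turn gave -0.72 to -0.34 for Eed and 0.41 to 0.73 for Suz12. Ezh2 was at -0.50 in the deep and 0.63 in the shallow group, Tet2 at -0.21 and -0.53, Tet3 at -0.06 and 0.59, and Dnmt3a at -0.03 and 0.36. The 16 relations (8 transcripts, 2 library groups) were each set among all genes of the same group.

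**Figure D3:**
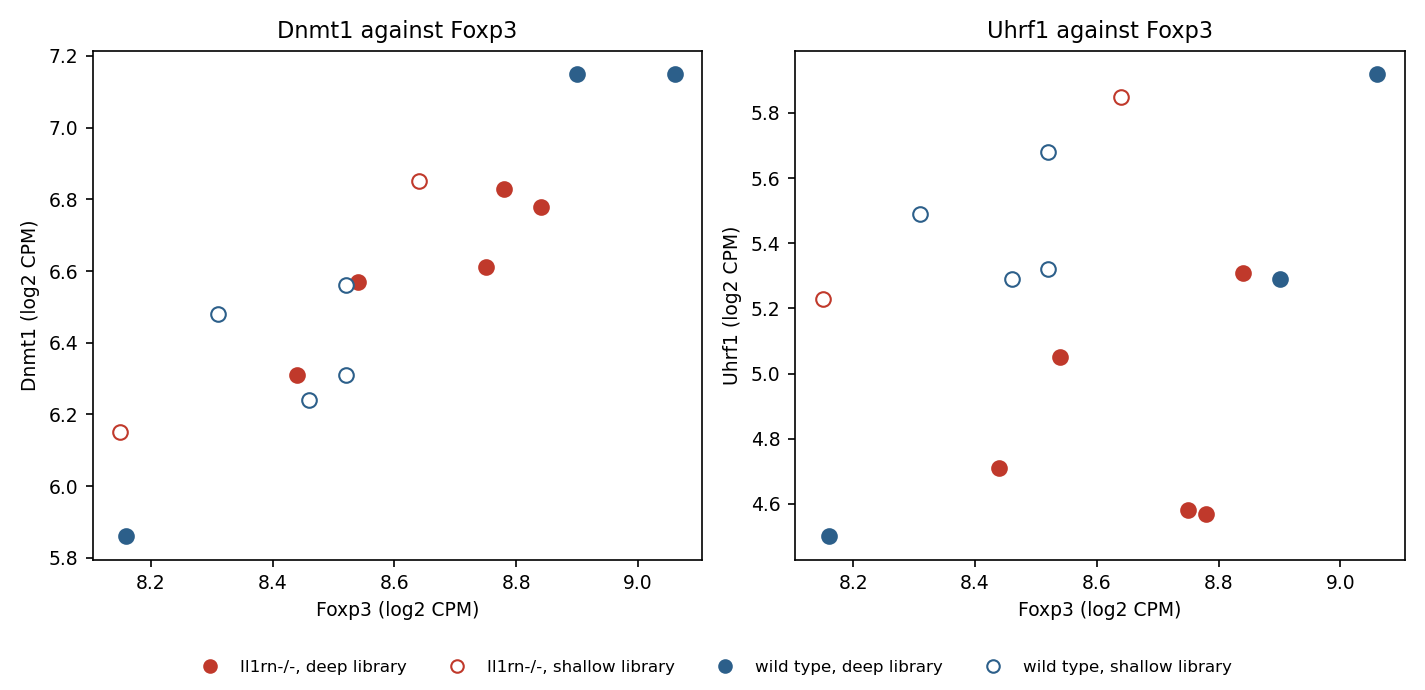
Dnmt1 and Uhrf1 against Foxp3, in log2 CPM, 1 point per library, coloured by genotype, filled for deep and open for shallow libraries. Across the deep libraries of both genotypes r with Foxp3 is 0.97 for Dnmt1 and 0.71 for Uhrf1.

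After each gene was centred on its library group, Foxp3 was also the gene most like Dnmt1 among 5158 genes with a mean of at least 4 log2 CPM (r = 0.91 over 14 libraries, a description with no test), ahead of Raver1 (0.89). The genes most like the others by the same measure were Mapk6 (0.89) and Dhx38 (0.86) for Uhrf1, Ftsj3 (0.80) and Gsap (0.79) for Dnmt3a, and Tgs1 (0.81) and Mgat5 (0.79) for Tet2. Tet3 was most like Kmt2d (0.94), an H3K4 methyltransferase of enhancers. For PRC2 they were Idh2 (0.80) and St3gal1 (0.79) for Ezh2, Dedd (0.86) and Unc50 (0.85) for Eed, and Abca7 (0.85) and Cflar (0.82) for Suz12. Centred in this way, r with Foxp3 was 0.70 for Uhrf1, 0.42 for Suz12 and -0.44 for Eed.

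The promoters of Foxp3 and of Tet2 are printed as examples of a median and a high CpG content. CpG sites are what the DNA methylation enzymes among the 8 act on, whereas PRC2 acts on H3K27. Tet2 had the most CpG of the 8 genes. The intronic enhancer of Foxp3 was not analysed here. Both are the 250 bases before a RefSeq start in GRCm38.p6, each CpG in capitals. That of Foxp3, chrX:7579426-7579675 on the plus strand, holds 6 CpG, the median over 32851 promoters of the table. That of Tet2, chr3:133544391-133544640 on the minus strand, holds 51, reached by 0.0670% of promoters.
Foxp3: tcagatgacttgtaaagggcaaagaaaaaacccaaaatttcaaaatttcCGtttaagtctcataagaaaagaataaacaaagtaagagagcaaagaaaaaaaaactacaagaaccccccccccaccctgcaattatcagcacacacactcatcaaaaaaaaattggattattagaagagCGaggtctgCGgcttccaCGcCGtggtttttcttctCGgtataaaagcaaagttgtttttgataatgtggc
Tet2: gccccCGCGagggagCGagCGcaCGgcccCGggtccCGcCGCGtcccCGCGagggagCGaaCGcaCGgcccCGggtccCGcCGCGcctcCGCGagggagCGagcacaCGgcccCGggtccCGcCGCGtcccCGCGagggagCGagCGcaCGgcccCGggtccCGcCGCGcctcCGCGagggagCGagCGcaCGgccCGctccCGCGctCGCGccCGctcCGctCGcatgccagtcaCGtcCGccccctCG
The second Foxp3 start had 7 CpG. All 8 genes matched the table by gene ID, with 13 promoters. Suz12 had 37 CpG in the same window, Dnmt3a 38, 40 and 15 at its 3 starts, Uhrf1 10 and 30, Ezh2 23, Tet3 17, Eed 12, and Dnmt1 2, 7 and 26. The methylation of these CpG was not measured.

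The 4 words of the E2F motif, the binding site of factors that switch on S-phase genes, were sought in the same promoters (TTTCCCGC, TTTCGCGC, TTTGCCGC and TTTGGCGC, both strands, 250 bases before to 50 after the start). They occurred in 4 of the 13 promoters, of Dnmt1, Uhrf1, Ezh2 and Suz12, and in 2.26% of all promoters of the table. Each word holds a CpG, and these 4 promoters hold 26, 30, 23 and 37 CpG, against a median of 6 over all promoters. The share among promoters of like CpG content was not computed. A match is a string of letters and not a measured site. The 30 bases around the match nearest the window's upstream end are printed for each gene, with the word in capitals, because Dnmt1 and Uhrf1 were described above beside the cell cycle genes.
Dnmt1: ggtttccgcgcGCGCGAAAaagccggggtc
Uhrf1: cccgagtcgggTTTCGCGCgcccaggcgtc
Ezh2: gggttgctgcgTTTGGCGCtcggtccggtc
Suz12: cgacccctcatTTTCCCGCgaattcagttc
These lie at chr9:20952824-20952853 (minus strand), chr17:56304117-56304146 (plus), chr6:47595009-47595038 (minus) and chr11:79992876-79992905 (plus) in GRCm38.p6. Counted from the annotated start, the word begins at base -219 in Dnmt1 and Suz12, at base -185 in Uhrf1 and at base 4 in Ezh2. In Dnmt1 it reads GCGCGAAA, the reverse complement of TTTCGCGC, and the start used is the last of its 3.

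The wider machinery gave no gene past the threshold between genotypes. Of the DNA methylation writers and their helpers, 13 were tested, 7 with a positive and 6 with a negative difference, a median of 0.05 against 0.04 over all genes, and 0 passed. Of 16 demethylation genes 11 were negative, with a median of -0.08 and 0 passing. The lowest unadjusted p among them was that of Tdg, the glycosylase that removes Tet products, at -1.20 ± 0.56 (SE; limma unadjusted p = 0.0432, adjusted p = 0.787), and it was -0.08 with the library group in place of the letter. Of 8 methyl-CpG readers 6 were negative, with a median of -0.09 and 0 passing.

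Among PRC2 core and accessory subunits 9 of 12 were positive, with a median of 0.09 against 0.04 over all genes and 0 passing. Ezh1, the second catalytic subunit, was at 0.26 ± 0.17 (SE; limma adjusted p = 0.797). Among 22 PRC1 subunits, which place and read ubiquitin on H2A, 12 were negative, with a median of -0.05 and 0 passing. The sets went opposite ways, with 18 of 22 positive in set a (median 0.16, against 0.03 over all genes) and 13 of 22 negative in set b (median -0.26, against 0.05), and 0 passing in either. Scmh1 of PRC1 was at 0.74 ± 0.31 (SE; limma unadjusted p = 0.0274, adjusted p = 0.787), with 2 to 43 reads per library. The 10 opponents of Polycomb had a median of 0.04 and 0 passing.

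Factors known to act on the regulatory elements of the Foxp3 gene numbered 20, of which 10 were positive, with a median of 0.01 and 0 passing. Satb1, a chromatin organiser of Treg enhancers, was at -0.29 ± 0.14 (SE; limma unadjusted p = 0.0513, adjusted p = 0.787). Of 6 genes known to carry regions demethylated in Tregs 5 were positive, with a median of 0.06 and 0 passing: Il2ra was at -0.22, Ikzf2 at 0.23 and Ctla4 at 0.20. Of the 23 replication and cell cycle genes 16 were negative, with a median of -0.04 and 0 passing. In set a 20 of 23 were negative, with a median of -0.23 against 0.03 over all genes, whereas in set b 13 of 23 were positive, with a median of 0.08 against 0.05. An unadjusted p under 0.05 was reached by 0 of 23 in set a and 4 of 23 in set b, beside 15.0% of all genes in set b, and 0 passed in either. Summed, these 23 genes ranged over 1086 to 1341 CPM in Il1rn-/- libraries and 950 to 2088 in wild-type libraries.

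Between sets the same lists held genes that passed, as did 19.5% of all genes. Of the PRC2 list 10 of 12 were negative (set b minus set a), with a median of -0.37 against -0.11 over all genes, and 0 passed. Of the opponents of Polycomb 3 of 10 fell, with Kmt2a, an H3K4 methyltransferase, at -0.91 ± 0.20 (SE; limma adjusted p = 0.00549). Of 13 writers and helpers 2 rose and 2 fell, and of 16 demethylation genes 2 rose. The highest were Ahcy, which clears the product of methyl transfer, at 3.59 ± 0.67 (SE; limma adjusted p = 0.00204), and Tdg, at 3.31 ± 0.56 (adjusted p = 0.00141). Both values are uncertain, since 71.3% of the 32-base words of Ahcy and 47.6% of those of Tdg also occur in other genes, and they were at -4.71 and -3.93 in deep minus shallow libraries. Of 23 cell cycle genes 2 rose and 4 fell, with Pcna, the replication clamp, at 0.78 ± 0.15 (limma adjusted p = 0.00231) and Mki67, a marker of dividing cells, at -1.58 ± 0.29 (adjusted p = 0.00204). Of 6 genes demethylated in Tregs 2 rose and 1 fell, with Il2ra, the high-affinity IL-2 receptor chain, at 0.66 ± 0.14 (adjusted p = 0.00478) and Ikzf2, encoding Helios, at -0.48 ± 0.15 (limma adjusted p = 0.0364). Of 22 PRC1 genes 1 rose and 1 fell, and of 20 factors of the Foxp3 elements 2 rose and 1 fell, with Nfatc2, a calcium-regulated factor, at 0.61 ± 0.20 (limma adjusted p = 0.0374). Of the methyl-CpG readers 0 of 8 passed. With the library group added to the model, 12 genes in all passed between sets in place of 2408.

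**Figure D4:**
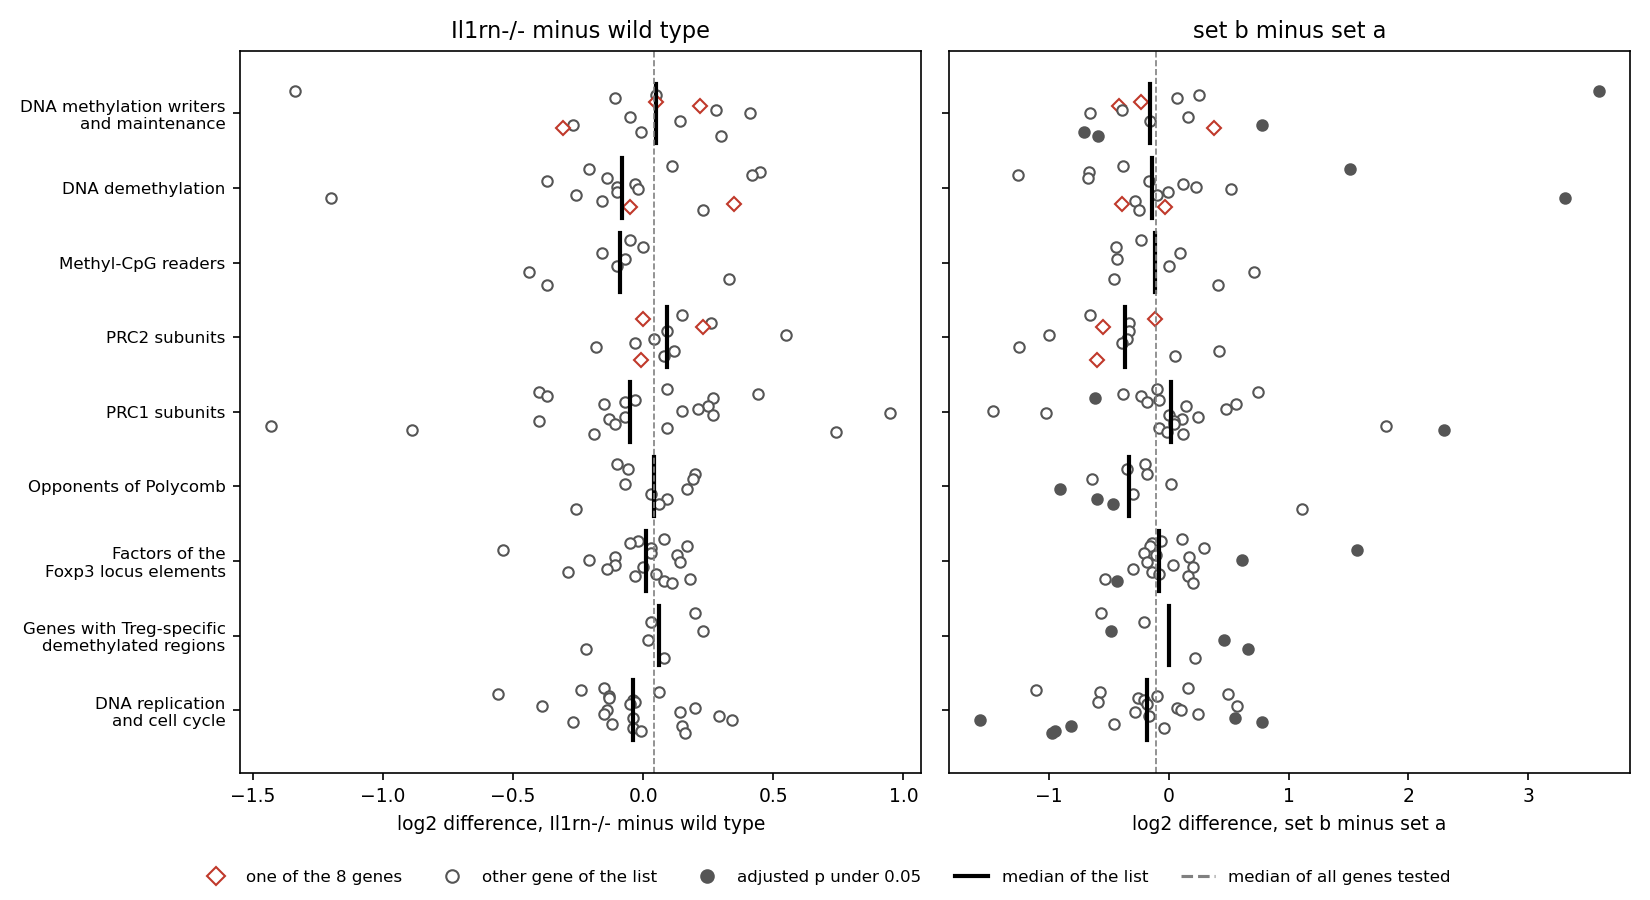
Log2 difference of each tested gene of 9 lists between Il1rn-/- and wild type (left) and between set b and set a (right), with the list median as a bar and the median of all genes tested as a dashed line. Filled points passed an adjusted p of 0.05, of which there are none on the left, and the 8 transcripts (diamonds) are open on both sides.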

How the data were processed

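RNA was measured in 14 libraries made from sorted cells with Smart-Seq2, a low-input full-length method, with quantification by Cuffquant 2.2.1 per the labels' protocols. Cuffnorm, Cufflinks 2.2.1, TopHat2 2.0.10 and BWA stand in the submitters' processing notes. For build, annotation, strand and shared reads, the settings were not given in the sources used here. The authors deposited log2 CPM values for 14449 genes, 165 without a symbol. The lowest value, -3.58, was common to the 14 libraries and means 0 reads, and 100% of values gave whole reads within 0.001. Recovered reads served for depth, read numbers, CPM over reads outside Rn45s and limma voom, the log2 values for all else. Intervals cover the spread between libraries. In shallow libraries low reads limit the precision of Suz12 (11 to 22 reads), Eed (19 to 42), Ezh2 (20 to 36) and Tet2 (21 to 53).

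Genes over 1 CPM in at least 3 libraries were tested with limma 3.58.1 in R 4.3.3 (intensity trend, genotype and set letter as terms, Benjamini-Hochberg over all genes). A model of 4 groups gave the contrasts within and between sets. Library groups came from average-linkage clustering. Exact permutations of Foxp3 pairings were adjusted over all genes; adjustment over the 8 transcripts alone, planned at first, was not used. Named genes were the 8, Foxp3, Rn45s, 3 genes or fewer from each list by genotype p and 2 or fewer by set, and 2 genes most like each transcript, of which 1 is not reported here. The 8 transcripts and all 15 lists were chosen with earlier results of these data known. The model was tested on simulated data. Other work used Python 3.11.15, and promoters came from RefSeq (GRCm38.p6). No label says that replicate numbers pair libraries, and the main model did not pair them. The correlation of deviations between libraries of the same number was -0.29 to -0.06 in set a and -0.02 to 0.06 in set b. It cannot exclude a pairing, since in set b some numbers join a deep and a shallow library.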

Additional observations from a re-analysis of the deposited data

How the results depend on the processing

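The 0 calls between genotypes over all libraries held under every alternative run except the deep libraries alone (2 genes) and the shallow libraries alone (13 genes). With replicate numbers as a block within letters, 0 genes were called. In set a, leaving out 1 library gave 0 to 1 calls, the 1 without wild type 3-a. In set b, CPM over reads outside Rn45s gave 3 calls, and leaving out 1 library gave 0 to 230: 230 without Il1rn-/- 2-b, 7 without 1-b and 3 without wild type 1-b. None of these calls was among the 8 transcripts. Between sets, adding the library group gave 12 calls in place of 2408. Leaving out 1 library gave 1355 (without wild type 2-a, and 1570 without wild type 1-a) to 3376 (without Il1rn-/- 4-b) of 12329 genes. Those 3376 held Ezh2, Dnmt3a and Suz12. Of the 8 transcripts, 0 passed the correlation with Foxp3 on the deposited scale and with libraries centred on their median (Dnmt1 exact permutation adjusted p = 0.153), and 1, Dnmt1, passed by r but not by rho (adjusted p = 0.0556) with CPM over reads outside Rn45s, where the share of all genes at an unadjusted p under 0.05 was 15.9% in place of 11.4%.

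Signs turned only for values that had not passed. Over all libraries, the genotype difference of Dnmt1 was -0.06 with CPM outside Rn45s, -0.02 with the library group in place of the letter and -0.10 in deep libraries alone. That of Dnmt3a was -0.13 in deep libraries alone, that of Uhrf1 0.09 in shallow ones alone, and that of Ezh2 -0.09 in shallow ones alone and -0.03 with library group and Y-linked transcripts as terms. In set b, CPM outside Rn45s gave -0.06 for Dnmt1, -0.17 for Eed and -0.09 for Suz12. For the difference between sets it gave -0.05 for Ezh2 and -0.14 for Eed. For set b minus set a, it gave 0.01 for Tet3, and adding the library group gave 0.06 for Dnmt3a, 0.20 for Tet2 and 0.03 for Eed. The cause was not tested.

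Leaving out 1 library spread the genotype difference over -0.10 to 0.14 for Dnmt1, -0.13 to 0.03 for Tet3 and -0.16 to 0.06 for Suz12. In set a it spread over -0.48 to 0.16 for Dnmt1, -0.87 to -0.16 for Uhrf1, -0.33 to 0.14 for Tet2, -0.23 to 0.20 for Tet3, -0.09 to 0.45 for Ezh2, -0.11 to 0.08 for Eed and -0.39 to 0.01 for Suz12. In set b it spread over -0.36 to 0.02 for Uhrf1, -0.14 to 0.02 for Tet3, -0.09 to 0.13 for Eed and -0.16 to 0.24 for Suz12. The difference between sets spread over -0.04 to 0.61 for Dnmt1, -0.01 to 0.70 for Uhrf1, -0.27 to 0.16 for Tet3, -0.17 to 0.37 for Ezh2, -0.07 to 0.15 for Eed and -0.01 to 0.49 for Suz12. Set b minus set a spread over -0.13 to 0.06 for Tet3, -0.53 to -0.33 for Dnmt3a, -0.66 to -0.42 for Ezh2 and -0.73 to -0.51 for Suz12. Leaving out each deep library for the correlation and adjusting it over all genes were chosen after seeing the data. Depth limits the shallow libraries most, where single transcripts of the 8 rested on as few as 11 reads.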
